A study of Homo sapiens with 18 samples.

Results

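The change in gene expression between 8 h and 12 h of treatment with PBITE-1 was followed in parental VCaP cells by comparing the 3 samples collected at 12 h directly with the 3 collected at 8 h, without DMSO in the comparison. These are 6 of the 18 samples of the series, chosen by their labelled time. VCaP is an epithelial prostate cancer cell line that expresses ERG, an ETS family transcription factor, from the TMPRSS2:ERG fusion. PBITE-1 is a small molecule that binds the pointed (PNT) domain of ERG, and it was given at 50 µM in DMEM with GlutaMax and serum for 4, 8, or 12 h, with 3 biological replicates per time. The 3 DMSO samples, whose time of collection the labels do not give, served to place each gene at 8 h and at 12 h. Because each treated time has no DMSO sample of its own, time on PBITE-1 and time in culture cannot be told apart. The 6 samples of VCaP-shERG, an engineered line in which 1 µg/mL doxycycline (Dox) induces a hairpin against ERG, were used beside the comparison as samples independent of it, with 3 given DMSO and 3 given Dox. VCaP-shERG was made from VCaP, and PBITE-1 was given to the parental line alone. RNA was depleted of ribosomal RNA rather than selected by its poly(A) tail, so transcripts without a tail, such as most histone mRNAs, were also read.

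A gene that a treatment affects can respond at once or late, and an early response can grow, hold, or subside. Proliferating cells express the genes for DNA replication under E2F transcription factors at the entry to S phase and the genes for mitosis under a separate program later in the cycle. Cells under stress raise chaperones of the cytosol through heat shock factor and chaperones of the endoplasmic reticulum (ER) through the unfolded protein response, and luminal prostate cells secrete proteins such as KLK3 (prostate-specific antigen).

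The deposited table gave counts for 22034 genes, of which 14164 passed the filter on low counts and were tested. Totals were 11308600 to 17483423 counts in the 8 h samples and 13366166 to 15312798 in the 12 h samples, and 3 counts corresponded to 0.175 to 0.269 counts per 1000000 (CPM, scaled by TMM) in these 6 samples. Replicates differed little, with a common biological coefficient of variation of 0.0441, but 12 h replicate 1 differed more from replicate 2 (chi-square per degree of freedom of 5.04) than any other pair of a group (1.86 to 3.45). On the first principal component, with 64.2% of the variance, the 8 h samples lay at 31.8 to 34.7 and the 12 h samples at 57.1 to 64.5. On the second, with 18.7%, the DMSO samples lay at 20.7 to 21.3, the 8 h samples at -29.3 to -27.6, and the 12 h samples at 33.2 to 37.6. Mitochondrially encoded genes took 8.62 to 8.98% of counts at 8 h and 8.06 to 8.43% at 12 h. All 10 luminal prostate markers were detected, with a summed level of 5552 to 5655 CPM of library total at 8 h and 3890 to 4607 at 12 h. The 8 fibroblast markers summed to 5.98 to 8.75 at 8 h and 5.53 to 9.67 at 12 h, with COL1A2 and PDGFRB at 0 at both times, the 8 leukocyte markers to 1.88 to 2.39 and 1.57 to 2.22, with CD3E and CD3D at 0, and the 6 endothelial markers to 2.15 to 2.48 and 2.02 to 2.62, with CLDN5 at 0. Of these other markers, 8 passed the filter on low counts. The 3 endothelial ones among them, at most 1.61 CPM in any 8 h sample, were called, 2 lower and 1 higher. Of the 3 leukocyte ones 1 was called lower, and no fibroblast one was called. The 7 of 8 basal or neuroendocrine markers in the table summed to 125 to 130 at 8 h and 134 to 147 at 12 h.

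Between 8 h and 12 h, 493 genes rose (3.48% of the genes tested) and 933 fell (6.59%). A called gene had an adjusted p under 0.05 in limma, over all tested genes, and a log2 fold change above 1 in size. In bulk RNA, fewer cells of a kind and less RNA per cell cannot be told apart. With no limit on the fold, 3931 genes were higher (27.8%) and 4602 lower (32.5%), and the median over all tested genes was -0.04 on the log2 scale. Each called gene was placed by its state at 8 h against DMSO. Late onset genes were within 0.5 of DMSO on the log2 scale at 8 h, continued genes had been called in the same direction at 8 h, reversed genes had been called in the opposite direction, and the remainder was intermediate. Of the 493 genes that rose, 151 were late onset, 88 continued, 112 reversed, and 142 intermediate. Of the 933 genes that fell, 327 were late onset, 148 continued, 196 reversed, and 262 intermediate. The 8 h samples enter both comparisons that define these groups, so the groups are counts only. At 8 h, 14.9% of all tested genes were called higher than DMSO and 8.86% lower. The 4 h samples lie outside both comparisons, but they are set against the same DMSO samples as the 8 h comparison that chose the groups. The shares called at 4 h are therefore not independent of that choice. At 4 h, 7.28% of all tested genes were called higher than DMSO and 2.99% lower. Of the 151 late onset genes that rose, 2 were called at 4 h, both lower, and of the 327 that fell 1 was called higher and 1 lower. Of the 88 continued genes that rose, 28 (31.8%) were called higher at 4 h. Of the 196 reversed genes that fell, 117 (59.7%) were called higher at 4 h, and of the 112 that rose 54 (48.2%) were called lower.

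**Figure D1:**
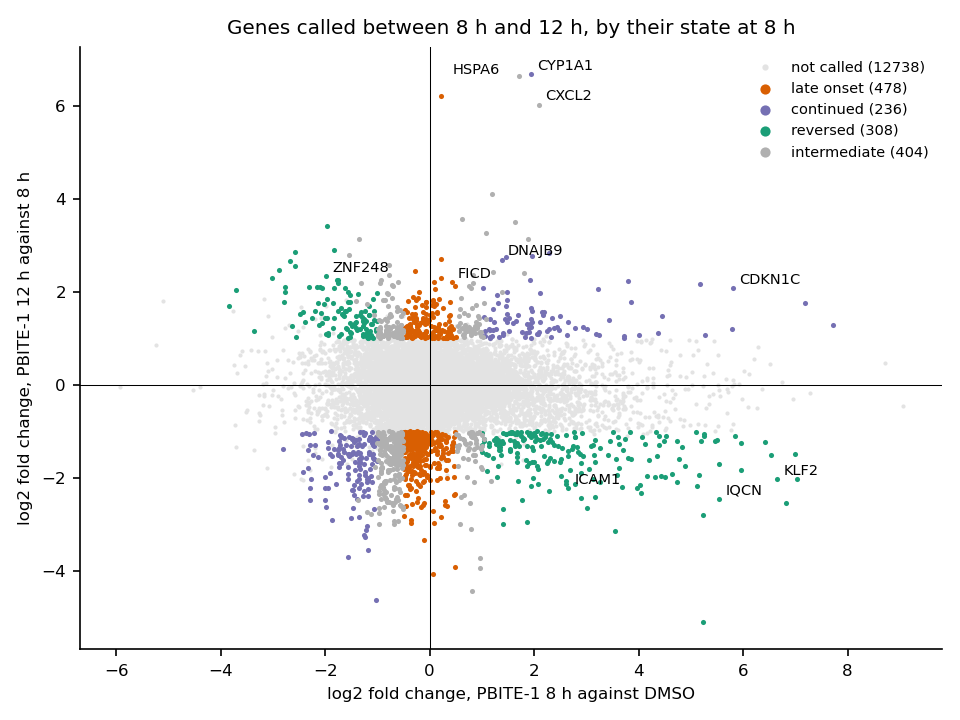
Each point is 1 of 14164 tested genes, with the log2 fold change of PBITE-1 8 h against DMSO on the horizontal axis and of 12 h against 8 h on the vertical axis, colored by its group. The 8 h samples enter both axes. Late onset genes (478) lie in the middle column, continued genes (236) at upper right and lower left, and reversed genes (308) at upper left and lower right, with CYP1A1, HSPA6, and CXCL2 at the top.

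The genes of DNA replication fell together between 8 h and 12 h, and the genes of mitosis did not. Of 60 replication genes, all tested, 59 were lower at 12 h at an adjusted p under 0.05. Of these, 22 were called with the fold limit, and the median log2 fold change of the list was -0.85. Against DMSO its median was -0.02 after 4 h, -0.20 after 8 h, and -1.03 after 12 h. Of 44 mitosis genes, 18 were higher and 11 lower, 1 was called, and the median was 0.05. Every role within the replication list had a negative median, from -1.05 for the 14 genes of origin recognition and loading to -0.56 for the 8 of strand processing. Medians of the mitotic roles lay between -0.11 and 0.13. The lowest was that of the role of CDK1 and cyclins, which also holds MYBL2, and the highest that of kinetochore genes. ORC2, a subunit of the origin recognition complex, was the member that did not pass, at 56.3, 56.1, and 60.7 CPM at 8 h and 57.2, 53.6, and 53.8 CPM at 12 h (log2 fold change -0.07, SE 0.06, adjusted p = 0.343).

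**Figure D2:**
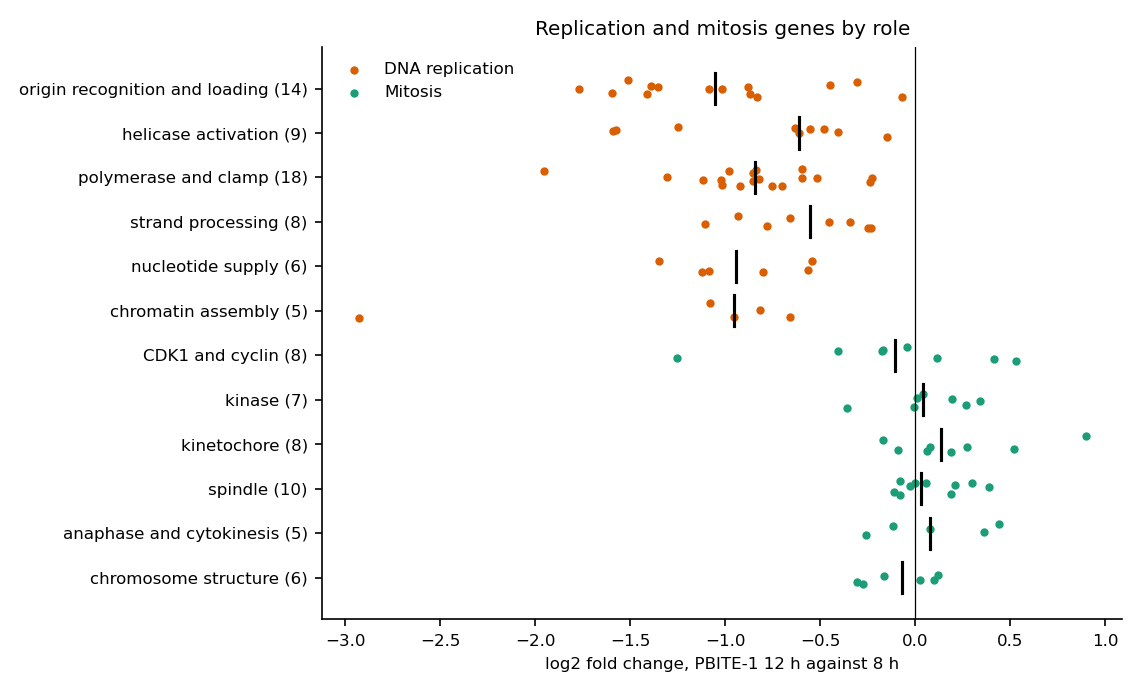
Each point is a gene, placed by its log2 fold change of PBITE-1 12 h against 8 h, with a row for each role and the number of genes in parentheses. Black bars are the medians of the roles. All 60 replication genes lie below 0, and the mitosis genes lie on both sides of it, with MYBL2 the farthest to the left.

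UHRF1, which binds hemimethylated DNA behind the replication fork and recruits the maintenance methyltransferase, fell the most of the list. It lies on chromosome 19, 4903080 to 4962154, plus strand (GRCh38, as are all positions here). It was at 78.0, 70.9, and 72.6 CPM in the 3 samples of 8 h and at 10.5, 8.82, and 9.94 CPM in those of 12 h (log2 fold change -2.93, SE 0.10, adjusted p = 1.92e-24). POLE2, a subunit of DNA polymerase epsilon (chromosome 14, 49643555 to 49688422, minus strand), went from 7.81, 7.29, and 9.23 CPM to 2.01, 2.68, and 1.55 CPM (log2 fold change -1.95, SE 0.23, adjusted p = 1.63e-09). MCM6, a subunit of the replicative helicase (chromosome 2, 135839626 to 135876426, minus strand), went from 140.0, 139.7, and 140.1 CPM to 37.8, 42.6, and 42.4 CPM (log2 fold change -1.77, SE 0.06, adjusted p = 2.14e-25). Its partner MCM5 went from 38.9, 37.2, and 41.8 CPM to 13.2, 12.9, and 12.7 CPM (log2 fold change -1.60, SE 0.09, adjusted p = 5.6e-18). In each of these 4 genes, every 12 h sample lay below every 8 h sample, as was the case in the lower direction for 34.2% of all tested genes. Of called genes, 883 of the 933 that fell and 472 of the 493 that rose had no overlap, so this adds little to a call. In all 4 genes the fall passed the fold limit. MCM6 was late onset, at 184 ± 8.03 CPM in DMSO and 139.9 ± 0.223 CPM at 8 h (SD, n = 3 each). MCM5 and POLE2 had been called lower at 8 h already (-1.06 and -1.13 on the log2 scale). Among the mitosis genes, TPX2, which nucleates spindle microtubules, was at 538, 563, and 551 CPM at 8 h and 553, 526, and 573 CPM at 12 h (log2 fold change 0.00, SE 0.03, adjusted p = 0.997). The condensin subunit SMC4 was at 679, 693, and 670.3 CPM and 672, 716, and 690.4 CPM (log2 fold change 0.02, SE 0.03, adjusted p = 0.543). The samples of both times overlapped in both genes. MYBL2, a transcription factor of late S phase and the called member of the mitosis list, went from 214, 208, and 205 to 86.2, 89.9, and 87.1 CPM (log2 fold change -1.25, SE 0.05, adjusted p = 3.85e-24).

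The regulators of the G1 to S transition moved in the same window. Of 29 genes of G1 control, 18 were lower and 5 higher, with 8 and 1 called, and the median was -0.52. E2F1 (chromosome 20, 33675683 to 33686404, minus strand), an activating factor of the E2F family, was at 125, 121, and 120.4 CPM at 8 h, above the 109 ± 4.95 CPM of DMSO (SD, n = 3). At 12 h it was at 36.5, 37.4, and 34.5 CPM (log2 fold change -1.76, SE 0.06, adjusted p = 1.78e-24). E2F2 went from 36.5, 36.8, and 39.1 CPM to 10.9, 10.7, and 10.2 CPM (log2 fold change -1.81, SE 0.10, adjusted p = 5.49e-19). E2F3 went from 111, 117, and 109.96 CPM to 40.4, 39.5, and 38.3 CPM (log2 fold change -1.52, SE 0.06, adjusted p = 1.14e-23). The 12 h samples of all 3 E2F genes lay below the 8 h samples. The retinoblastoma gene RB1 and its relative RBL2 did not pass the test (-0.07 and -0.06, adjusted p = 0.216 and 0.434). In the other direction, CDKN1C, the cyclin-dependent kinase inhibitor p57, went from 14.3, 16.6, and 13.9 CPM to 72.5, 53.8, and 65.6 CPM (log2 fold change 2.08, SE 0.11, adjusted p = 3.52e-19). It was continued, with counts of 1, 9, and 5 in the DMSO samples, and every 12 h sample lay above every 8 h sample, as for 29.5% of all tested genes. Of 23 genes of homologous recombination and the Fanconi anemia pathway, 17 were lower and 4 higher, with a median of -0.44. BRIP1, a helicase of this pathway, went from 53.01, 53.4, and 49.5 to 19.3, 20.98, and 21.5 CPM (log2 fold change -1.34, SE 0.09, adjusted p = 5.84e-16). ZNF367, a zinc finger protein, was among the 4 late onset genes with the largest falls, from 64.3, 63.8, and 64.1 to 11.6, 12.9, and 14.1 CPM (log2 fold change -2.31, SE 0.10, adjusted p = 2.53e-22).

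Promoter windows of 4 of these genes are shown because they hold an E2F motif, the letters TTTGGCGC or TTTCCCGC on either strand, given in capitals. The windows are RefSeq sequences of GRCh38.p14, from 250 bases before to 50 after the annotated start, in the direction of the gene. MCM6 is at chr2:135876394-135876693, minus strand, E2F1 at chr20:33686336-33686635, minus strand, UHRF1 at chr19:4909251-4909550, plus strand, and POLE2 at chr14:49688165-49688464, minus strand. The RefSeq start of UHRF1 lies inside the gene as GENCODE places it.
MCM6: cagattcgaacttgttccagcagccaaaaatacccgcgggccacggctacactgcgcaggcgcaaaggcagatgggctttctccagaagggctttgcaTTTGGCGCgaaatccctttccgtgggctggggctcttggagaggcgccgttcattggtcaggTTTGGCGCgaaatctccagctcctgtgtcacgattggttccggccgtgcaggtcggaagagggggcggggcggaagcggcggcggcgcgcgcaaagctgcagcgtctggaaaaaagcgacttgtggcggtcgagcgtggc
E2F1: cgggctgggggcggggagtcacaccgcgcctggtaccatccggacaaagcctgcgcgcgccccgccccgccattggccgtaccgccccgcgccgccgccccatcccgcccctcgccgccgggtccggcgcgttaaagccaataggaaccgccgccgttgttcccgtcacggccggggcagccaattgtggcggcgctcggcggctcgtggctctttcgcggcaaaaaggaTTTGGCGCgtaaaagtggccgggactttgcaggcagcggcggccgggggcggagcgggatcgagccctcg
UHRF1: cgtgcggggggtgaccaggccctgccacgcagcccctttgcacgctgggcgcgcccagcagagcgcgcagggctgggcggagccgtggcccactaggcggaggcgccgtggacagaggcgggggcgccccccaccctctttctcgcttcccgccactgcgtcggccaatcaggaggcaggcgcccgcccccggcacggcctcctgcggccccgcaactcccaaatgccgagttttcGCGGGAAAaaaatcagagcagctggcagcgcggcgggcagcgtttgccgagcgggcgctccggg
POLE2: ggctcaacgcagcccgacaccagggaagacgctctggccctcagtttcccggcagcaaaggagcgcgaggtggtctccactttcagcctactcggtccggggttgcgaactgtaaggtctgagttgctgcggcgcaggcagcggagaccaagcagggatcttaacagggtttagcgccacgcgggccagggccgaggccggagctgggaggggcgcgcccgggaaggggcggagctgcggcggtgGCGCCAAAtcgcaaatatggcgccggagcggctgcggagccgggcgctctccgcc
Either lettering was present in 18 of the 51 replication promoters in the reference (35.3%), in 1 of the 38 mitosis promoters (2.63%), in 3.67% of the 10944 promoters of tested genes, and in 2.31% of all 27305 promoters. Among the genes that fell it was present in 5.16% of promoters and among those that rose in 1.17%. The NF-Y letters CCAAT were in 58.8% of replication and 68.4% of mitosis promoters, against 36.9% of those of tested genes. The windows of MYBL2 and MTHFD1 held no match to the E2F letters. A match to these letters is a description of the window and not a measured binding site.

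Most listed genes of nucleotide synthesis, ribosome biogenesis, and oxidative phosphorylation were lower as well, mostly by less than the fold limit, while the one-carbon enzymes were mixed. Of 17 serine and one-carbon enzymes, 9 were lower and 7 higher (median -0.21), and each direction had 1 called gene. MTHFD1 (chromosome 14, 64388031 to 64463457, plus strand), which interconverts one-carbon units on folate for purine and thymidylate synthesis, was late onset and went from 135, 139, and 149 CPM to 30.4, 32.7, and 32.9 CPM (log2 fold change -2.13, SE 0.06, adjusted p = 9.62e-27). ALDH1L2, a mitochondrial folate dehydrogenase, went the other way, from 8.63, 6.398, and 6.45 to 14.96, 16.7, and 14.8 CPM (SE of the log2 fold change 0.14, adjusted p = 7.98e-09). Of 17 nucleotide synthesis genes, a list chosen after values were seen, 15 were lower and 2 did not pass, with a median of -0.58. Of 47 ribosome biogenesis genes, 35 were lower and 3 higher, with 4 called and a median of -0.42, and the list had medians of -0.25, -0.69, and -1.39 against DMSO at the successive times. UTP20, of the small subunit processome, went from 50.4, 51.9, and 50.7 to 20.6, 19.8, and 20.96 CPM (log2 fold change -1.32, SE 0.08, adjusted p = 5.68e-18). BOP1, which processes the large subunit rRNA, went from 42.5, 42.0, and 40.6 to 17.8, 15.9, and 18.6 CPM (log2 fold change -1.27, SE 0.09, adjusted p = 2.97e-15). NHP2, a box H/ACA core protein, went from 65.2, 64.3, and 69.2 to 32.7, 26.3, and 29.1 CPM (log2 fold change -1.18, SE 0.08, adjusted p = 2.6e-16). The 12 h samples lay below the 8 h samples in each. The nucleolar GTPase GNL3 did not pass, at 188, 183, and 192 and 188, 212, and 199.8 CPM (log2 fold change 0.09, SE 0.05, adjusted p = 0.0776).

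Of 44 nuclear genes of oxidative phosphorylation, 39 were lower, 5 did not pass, and 1 was called, with a median of -0.39. It was lowest for the 17 genes of complex I (-0.54) and the 8 of complex V (-0.52) and nearest 0 for the 9 of complex IV (-0.26). Of the 13 mitochondrially encoded genes 10 were lower and 1 higher (median -0.18), and of 51 cytosolic ribosomal protein genes 35 were lower and 16 did not pass (median -0.12). Of 37 proteasome genes, 23 were lower and 2 higher (median -0.23). Of 20 glycolysis genes, 15 were lower and 1 higher, with a median of -0.65, and the called ones were PFKP, GPI, and ENO1. Of 13 hypoxia genes, 2 were lower and 6 higher, with a median of 0.21. GPI, which interconverts glucose and fructose phosphates, went from 376, 364, and 361 to 158, 146, and 148 CPM (log2 fold change -1.29, SE 0.04, adjusted p = 1.05e-25). ENO1, the enolase, went from 803, 784, and 769.8 to 353, 364, and 369.7 CPM (log2 fold change -1.12, SE 0.03, adjusted p = 3.33e-26). Both were late onset, and in neither did the samples of the times overlap. The valyl-tRNA synthetase VARS1 went from 68.5, 66.2, and 65.4 to 19.6, 22.1, and 19.1 CPM (log2 fold change -1.72, SE 0.08, adjusted p = 1.14e-20). The list of 23 genes of cytosolic aminoacyl-tRNA synthetases and their scaffold was split, with 11 lower and 9 higher. Its 20 synthetases had 9 in each direction, and 2 of its 3 scaffold genes were lower. SRM, the spermidine synthase, went from 40.6, 36.1, and 35.04 to 12.7, 15.3, and 12.1 CPM (log2 fold change -1.49, SE 0.10, adjusted p = 9.68e-16), the called member of 11 polyamine genes.

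**Figure D3:**
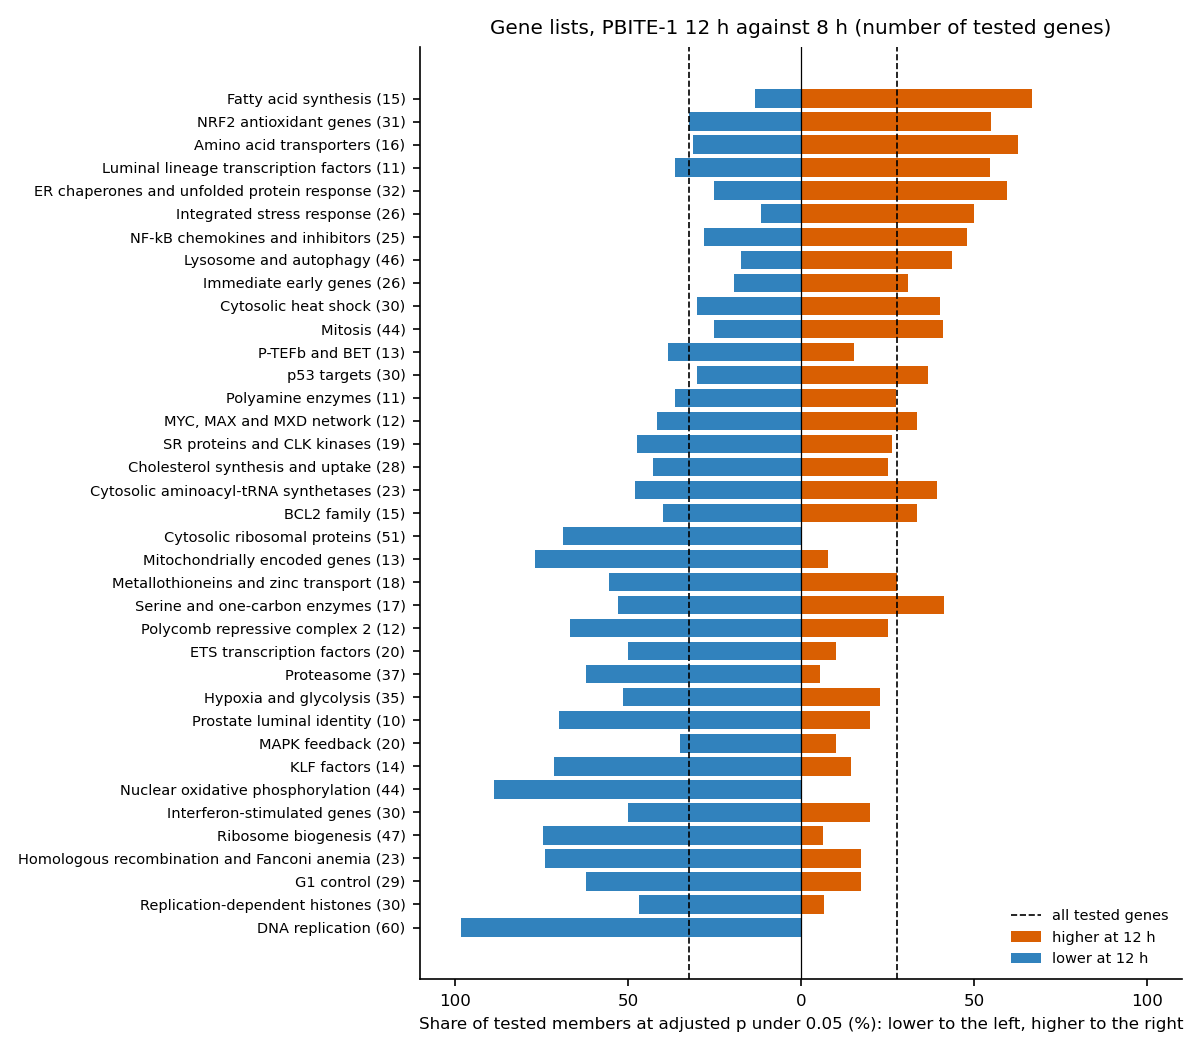
Bars give, for gene lists with at least 10 tested members, apart from those chosen after values were seen, the share of members higher (right) and lower (left) at 12 h than at 8 h at an adjusted p under 0.05, in percent, ordered by the median log2 fold change. Dashed lines give the same shares over all tested genes (27.8% and 32.5%). DNA replication, with 59 of 60 lower, and nuclear oxidative phosphorylation, with 39 of 44 lower, reach farthest to the left, and fatty acid synthesis, with 10 of 15 higher, reaches farthest to the right.

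Among genes of prostate cells, KLK3, ACP3, KLK2, and TGM4 fell, mostly after 8 h, and others that a list groups as secretory did not. The grouping is that of the list and does not show that each product is secreted. Of the 5 tested genes grouped as secretory, KLK3, ACP3, and KLK2 were lower, NDRG1, named here after its values were seen, was higher (0.54), and TMPRSS2 did not pass. Of the 10 luminal prostate markers, 7 were lower, 2 higher, and 1 did not pass, with a median of -0.29. KLK3 (chromosome 19, 50854915 to 50860764, plus strand) was at 53.5, 50.7, and 49.6 CPM at 8 h and at 8.71, 7.45, and 7.53 CPM at 12 h (log2 fold change -2.71, SE 0.11, adjusted p = 1.51e-22). ACP3 (chromosome 3, 132317367 to 132368298, plus strand), prostatic acid phosphatase, went from 834, 817, and 813 CPM to 154, 138, and 152 CPM (log2 fold change -2.47, SE 0.04, adjusted p = 4.61e-36). KLK2 (chromosome 19, 50861568 to 50880567, plus strand), a kallikrein that activates prostate-specific antigen, went from 2054, 2035, and 1962 CPM to 615, 580.4, and 606 CPM (log2 fold change -1.75, SE 0.03, adjusted p = 1.14e-32). TGM4, the prostate transglutaminase (chromosome 3, 44874608 to 44914990, plus strand), went from 41.6, 44.4, and 38.5 CPM to 6.85, 6.34, and 7.93 CPM (log2 fold change -2.57, SE 0.12, adjusted p = 1.67e-20). In KLK3, ACP3, KLK2, and TGM4 each 12 h sample lay below each 8 h sample. Their log2 fold changes against DMSO after 4, 8, and 12 h were 0.06, -0.38, and -2.13 for KLK2. Those of ACP3 were -0.13, -0.60, and -3.08.

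Other genes of prostate cells differed in direction. SLC45A3, the prostate membrane protein prostein, rose from 14.1, 13.2, and 14.2 CPM at 8 h to 61.2, 27.1, and 45.9 CPM at 12 h (log2 fold change 1.60, SE 0.18, adjusted p = 4.44e-10). It was reversed, with 29.05 ± 1.54 CPM in DMSO (SD, n = 3). Its 12 h samples spread more than 2-fold, with replicate 1 the highest, and all lay above the 8 h samples. PMEPA1, a feedback inhibitor of TGF-beta signaling, and TMPRSS2, which gives its promoter to the fusion, had been called lower at 8 h (-1.99 and -1.95 against DMSO) and did not pass between 8 h and 12 h (0.03, adjusted p = 0.701, and -0.00, adjusted p = 0.996). Among 11 transcription factors of the luminal lineage, 6 were higher and 4 lower, and HOXA13, a homeobox factor of distal urogenital development, was called. It went from 114, 112, and 113 to 396, 295, and 360.1 CPM (log2 fold change 1.62, SE 0.07, adjusted p = 5.77e-22). The keratin gene KRT8 did not pass (0.03, adjusted p = 0.661).

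No change of the ERG transcript passed the test between 8 h and 12 h. It was at 96.6, 93.9, and 90.7 CPM at 8 h and 102, 88.4, and 101 CPM at 12 h (log2 fold change 0.04, SE 0.05, adjusted p = 0.501). Both were below the 289 ± 8.85 CPM of DMSO and the 179.9 ± 3.36 CPM of 4 h (SD, n = 3 each). Its step from 8 h to 12 h differed from its step from 4 h to 8 h by 0.98 on the log2 scale (SE 0.09, adjusted p = 2.12e-11). Of the 10 genes the study names as ERG targets, 9 were tested, of which 4 were lower and 5 did not pass. The list used here records them as named by the study on these samples, so their direction is not taken as independent evidence. TRIM14, a tripartite motif protein, went from 71.6, 75.0, and 67.6 to 20.1, 20.8, and 20.96 CPM (log2 fold change -1.79, SE 0.07, adjusted p = 1.98e-22). ARHGDIB, a GDP dissociation inhibitor, went from 40.7, 34.9, and 41.0 to 14.4, 15.1, and 12.2 CPM (log2 fold change -1.48, SE 0.10, adjusted p = 8.35e-16). PLA1A, a phospholipase, went from 119.9, 112, and 106 to 54.4, 45.2, and 52.5 CPM (log2 fold change -1.16, SE 0.06, adjusted p = 2.66e-18). TDRD1, a Tudor domain protein of the germline, fell by less than the fold limit, from 108, 101, and 109.5 to 68.4, 64.5, and 68.3 CPM (log2 fold change -0.66, SE 0.06, adjusted p = 1.03e-12). The samples of the times did not overlap in these 4 genes. The others did not pass, with log2 fold changes of -0.91 for PLAT (SE 0.43), 0.15 for USP36, -0.09 for CAPN15, -0.01 for DLX1, and -0.00 for TMPRSS2. MMP9 did not pass the filter on counts.

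**Figure D4:**
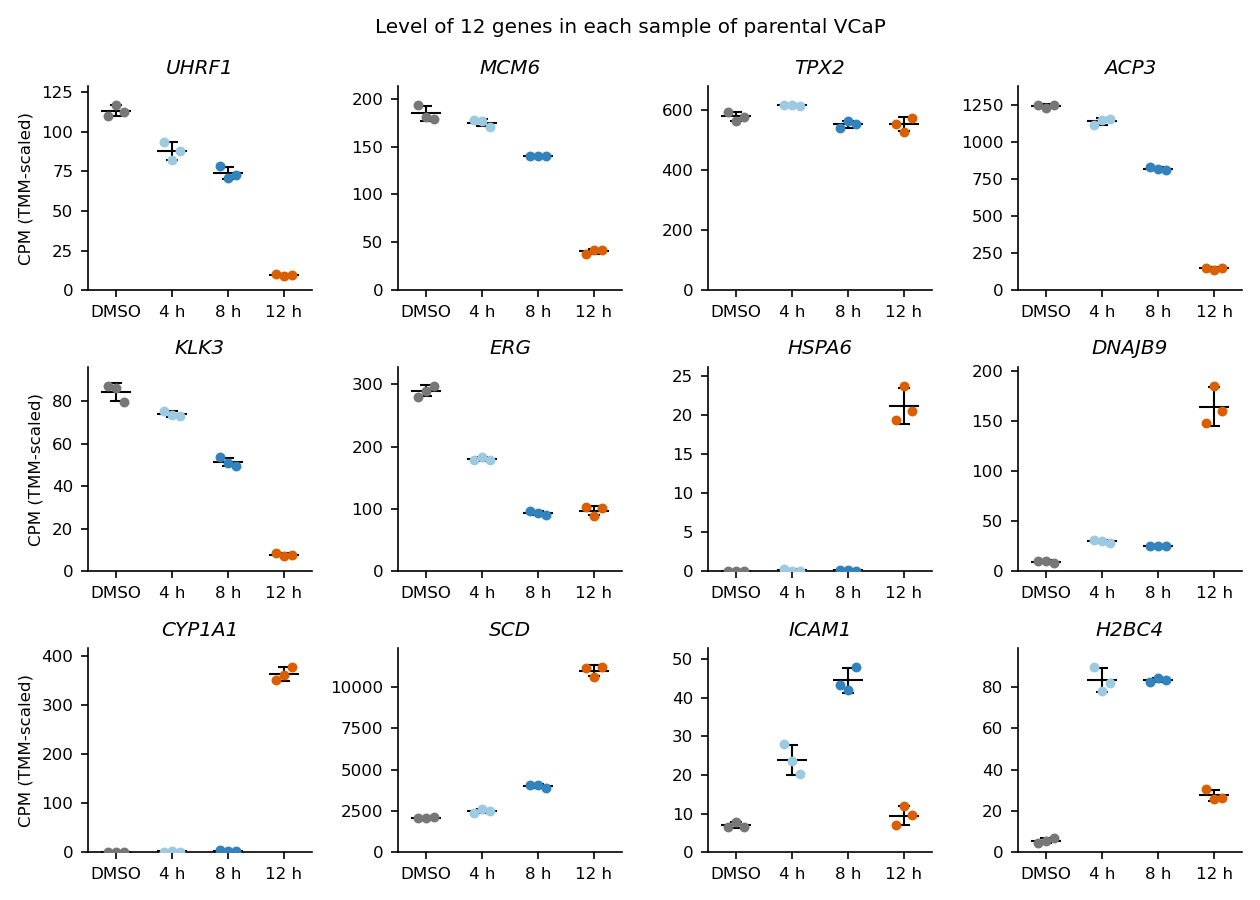
Points give the level in each of the 12 parental samples, in CPM scaled by TMM, for 12 genes in DMSO and after 4, 8, and 12 h of PBITE-1, with black lines for the mean and SD of 3 samples. Each panel has its own axis from 0. UHRF1, MCM6, ACP3, and KLK3 fall between 8 h and 12 h, TPX2 and ERG do not pass the test in that step, HSPA6, DNAJB9, CYP1A1, and SCD rise, and ICAM1 and H2BC4 turn from high at 8 h toward the DMSO level.

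Some genes of chaperones and of the secretory pathway rose, while others on the same lists fell. Of 30 cytosolic heat shock genes, 12 were higher and 9 lower, with a median of 0.05. HSPA6 (chromosome 1, 161524540 to 161526910, plus strand), the HSP70 gene that is silent without stress, had 0, 1, and 1 counts in the DMSO samples and 4, 1, and 0 at 4 h. It had 4, 3, and 1 counts at 8 h and 260, 364, and 305 counts at 12 h (log2 fold change 6.66, SE 0.54, adjusted p = 1.36e-13). This fitted value rests on few counts at 8 h and is no bound. HSPA1B and HSPA1A code for the same inducible HSP70 protein. HSPA1B went from 44.0, 41.6, and 45.2 to 116, 122, and 112 CPM (log2 fold change 1.42, SE 0.06, adjusted p = 1.58e-22). HSPA1A went from 2.97, 2.55, and 3.14 to 19.3, 23.1, and 17.3 CPM (log2 fold change 2.78, SE 0.19, adjusted p = 2.4e-15). Both were continued, and the division of reads between these near-identical copies is uncertain. The 8 HSP70 genes had a median of 0.91, with 6 higher and 2 lower, and all 4 called members of the heat shock list were among them. HSP90AA1, the inducible HSP90, was at 1466, 1504, and 1474 and 1493, 1546, and 1566 CPM and did not pass (log2 fold change 0.05, SE 0.03, adjusted p = 0.113).

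In the ER, 19 of 32 genes of chaperones and the unfolded protein response were higher and 8 lower, with a median of 0.21. The 8 genes of ER-associated degradation had a median of 0.78, with 7 higher and 1 that did not pass. The 11 chaperones had a median of 0.04. DNAJB9 (chromosome 7, 108569568 to 108574850, plus strand), a co-chaperone of the ER HSP70 BiP, went from 25.5, 24.97, and 25.004 CPM to 148, 185, and 160.2 CPM (log2 fold change 2.70, SE 0.08, adjusted p = 1.89e-26). Before, it was at 9.83 ± 1.503 CPM in DMSO and 30.1 ± 1.58 CPM at 4 h (SD, n = 3 each). FICD (chromosome 12, 108515185 to 108525837, plus strand), which modifies BiP with AMP, had the largest rise of the late onset genes with a mean of at least 100 counts, from 7.23, 6.95, and 6.18 CPM to 30.7, 34.6, and 30.7 CPM (log2 fold change 2.22, SE 0.12, adjusted p = 1.08e-18). SEC24D, a coat subunit of vesicles that leave the ER, went from 55.5, 63.8, and 63.1 to 187, 214, and 207 CPM (log2 fold change 1.75, SE 0.06, adjusted p = 3.18e-25). EDEM2, which trims glycans of misfolded proteins, went from 8.98, 7.36, and 8.25 to 24.0, 25.4, and 23.1 CPM (log2 fold change 1.55, SE 0.12, adjusted p = 3.16e-14). CREB3L2, an ER-bound factor released by cleavage in the Golgi, went from 62.2, 66.7, and 66.5 to 235, 226, and 235 CPM (log2 fold change 1.83, SE 0.05, adjusted p = 1.87e-27). Every 12 h sample lay above every 8 h sample in these 5 genes, which the choice of FICD had required. FICD and CREB3L2 are not on the list of 32 genes. Of 30 genes of ER entry, ER exit, and hexosamine synthesis, a list chosen after values were seen, 23 were higher and 4 lower, with a median of 0.37 after -0.14 at 8 h against DMSO.

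Of EIF2AK3 and ERN1, sensors of ER stress, the first was called. EIF2AK3, the ER kinase PERK, went from 63.7, 60.4, and 66.2 to 127, 154, and 143 CPM (log2 fold change 1.16, SE 0.06, adjusted p = 2.65e-19). It is also the called member of the integrated stress response, of whose 26 tested genes 13 were higher and 3 lower. This list was at a median of 1.93 against DMSO at 8 h and 2.27 at 12 h. ERN1, the ER sensor IRE1, was at 192, 199, and 203 CPM at 8 h and 170.4, 241, and 201 CPM at 12 h (log2 fold change 0.04, SE 0.06, adjusted p = 0.633). In DMSO it was at 23.2 ± 0.449 CPM (SD, n = 3). PPP1R15A, which feeds back on eIF2 phosphorylation, and STC2, a secreted glycoprotein, were high against DMSO at 8 h (3.63 and 2.10) and did not pass in the later step (0.12 and -0.02). Of 46 lysosome and autophagy genes, 20 were higher and 8 lower (median 0.10), and of 16 amino acid transporters 10 were higher and 5 lower (median 0.27).

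Promoter windows of HSPA6 (chr1:161524290-161524589, plus strand) and FICD (chr12:108515027-108515326, plus strand) are shown for the motifs they hold, with the same source and limits as above. Capitals mark the heat shock factor motif in HSPA6, which was GAA, TTC, and GAA with any 2 bases between each. In FICD they mark the ER stress element, which was CCAAT and CCACG with any 9 bases between. Both were searched on either strand. The second motif was added after values were seen, and it contains the NF-Y letters.
HSPA6: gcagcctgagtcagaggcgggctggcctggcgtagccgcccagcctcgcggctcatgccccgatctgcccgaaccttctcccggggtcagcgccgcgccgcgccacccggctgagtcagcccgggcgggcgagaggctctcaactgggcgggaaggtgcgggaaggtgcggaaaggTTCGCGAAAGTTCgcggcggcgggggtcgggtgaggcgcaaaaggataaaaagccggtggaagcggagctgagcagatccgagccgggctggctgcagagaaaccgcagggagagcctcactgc
FICD: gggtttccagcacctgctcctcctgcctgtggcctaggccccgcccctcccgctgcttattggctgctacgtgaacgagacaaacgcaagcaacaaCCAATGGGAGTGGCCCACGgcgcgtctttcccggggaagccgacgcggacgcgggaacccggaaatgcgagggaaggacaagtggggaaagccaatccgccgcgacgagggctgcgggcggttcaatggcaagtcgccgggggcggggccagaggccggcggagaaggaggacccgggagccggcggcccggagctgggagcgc
The heat shock letters were in 5 of the 26 heat shock promoters (19.2%) and in 0.487% of all promoters, and the ER stress letters in 7 of the 28 ER promoters (25%) and in 0.0806% of all. HSPA6 is on the heat shock list, but FICD is not on the ER list. Over the genes that rose the shares were 0.292% for each. The windows of HSPA1A and HSPA1B held no match to the heat shock letters, and those of DNAJB9 and EDEM2 held none to the ER stress letters.

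CYP1A1 (chromosome 15, 74719542 to 74725610, minus strand), a monooxygenase induced through the aryl hydrocarbon receptor, had the largest fold change of the comparison. It was at 0.919, 0.732, and 1.03 CPM in DMSO and 1.81, 2.80, and 1.70 CPM at 4 h. At 8 h it was at 3.97, 2.75, and 3.85 CPM and at 12 h at 350.4, 360.4, and 378 CPM (log2 fold change 6.69, SE 0.16, adjusted p = 1.06e-29). Its step from 8 h to 12 h exceeded its step from 4 h to 8 h by 5.95 on the log2 scale (SE 0.39, adjusted p = 1.14e-15). Of 31 NRF2 antioxidant genes, 17 were higher and 10 lower (median 0.33), with 3 called in each direction. AKR1C1, an aldo-keto reductase, went from 2.16, 1.86, and 0.986 to 5.28, 10.3, and 6.79 CPM (log2 fold change 2.10, SE 0.30, adjusted p = 1.56e-07). HMOX1, heme oxygenase, went from 3.38, 2.89, and 3.14 to 5.21, 13.5, and 9.41 CPM (log2 fold change 1.49, SE 0.25, adjusted p = 3.82e-06). In both, replicate 1 was the lowest of the 12 h samples. The called genes that fell were AKR1C2 and the export pumps ABCC2 and ABCC3, all at low counts. AKR1C2, a close paralog of AKR1C1 that is named here after its values were seen, had 36, 22, and 23 counts at 8 h and 12, 22, and 8 at 12 h (log2 fold change -1.04, SE 0.38, adjusted p = 0.016), and the division of reads between the 2 genes is uncertain. NQO1 and GCLC did not pass (0.34 and 0.01). BEST1, a chloride channel, went from 3.91, 4.54, and 4.21 to 17.8, 21.2, and 20.7 CPM (log2 fold change 2.24, SE 0.16, adjusted p = 2.67e-15). Among late onset genes, AOPEP, an aminopeptidase, went from 7.52, 7.57, and 7.26 to 27.3, 25.7, and 29.2 CPM (log2 fold change 1.87, SE 0.12, adjusted p = 1.53e-16). STK32A, a kinase, went from 10.1, 9.63, and 10.8 to 35.4, 41.8, and 33.5 CPM (log2 fold change 1.86, SE 0.11, adjusted p = 7.54e-18). The naming of BEST1, AOPEP, and STK32A required that the samples of the times did not overlap. Of 30 p53 target genes, 11 were higher and 9 lower, and TP53INP1, which acts in autophagy and cell death, went from 504, 495, and 495 to 1432, 1039.8, and 1274 CPM (log2 fold change 1.31, SE 0.06, adjusted p = 3.76e-20).

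Of the 15 genes of fatty acid synthesis, 10 were higher, 2 lower, and 3 did not pass, with a median of 0.47, and the 3 called members, SCD, FASN, and FADS1, were higher. SCD (chromosome 10, 100347124 to 100364834, plus strand), the desaturase that makes monounsaturated fatty acids, went from 4061, 4101, and 3892 CPM to 11115, 10604, and 11224 CPM (log2 fold change 1.45, SE 0.03, adjusted p = 2.27e-34). In DMSO it was at 2086 ± 30.4 CPM (SD, n = 3). FASN (chromosome 17, 82078333 to 82098332, minus strand), the fatty acid synthase, went from 4254, 4208, and 3964 CPM to 11195, 9932, and 10472 CPM (log2 fold change 1.34, SE 0.04, adjusted p = 3.16e-28). FADS1, a desaturase of polyunsaturated fatty acids, had been lower than DMSO at 8 h (-0.63) and went from 162, 166, and 155 CPM to 436, 378, and 424 CPM (log2 fold change 1.35, SE 0.04, adjusted p = 2.36e-25). In all 3 genes the 12 h samples lay above the 8 h samples. ACACA and ACLY, which make malonyl-CoA and acetyl-CoA for the same pathway, did not pass (0.05 and -0.03).

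Cholesterol synthesis and uptake were split, with 7 of 28 genes higher, 12 lower, and a median of -0.09. NSDHL, a late enzyme of sterol synthesis, went back from 103, 105, and 93.7 CPM at 8 h to 41.6, 35.5, and 38.8 CPM at 12 h (log2 fold change -1.39, SE 0.07, adjusted p = 1.67e-20). In DMSO it was at 39.7 ± 1.19 CPM (SD, n = 3). The sterol exporter ABCA1 also fell, from 11.02, 14.9, and 18.7 to 6.33, 5.62, and 6.25 CPM (log2 fold change -1.21, SE 0.16, adjusted p = 4.64e-08). STARD4, a carrier of cholesterol, rose from 91.3, 88.3, and 89.5 to 190.4, 185, and 186 CPM (log2 fold change 1.06, SE 0.05, adjusted p = 5.79e-21). IDI1, of the mevalonate pathway, did not pass, at 1135, 1159, and 1113 and 1047, 1134, and 1076 CPM (log2 fold change -0.07, SE 0.03, adjusted p = 0.0937).

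**Figure D5:**
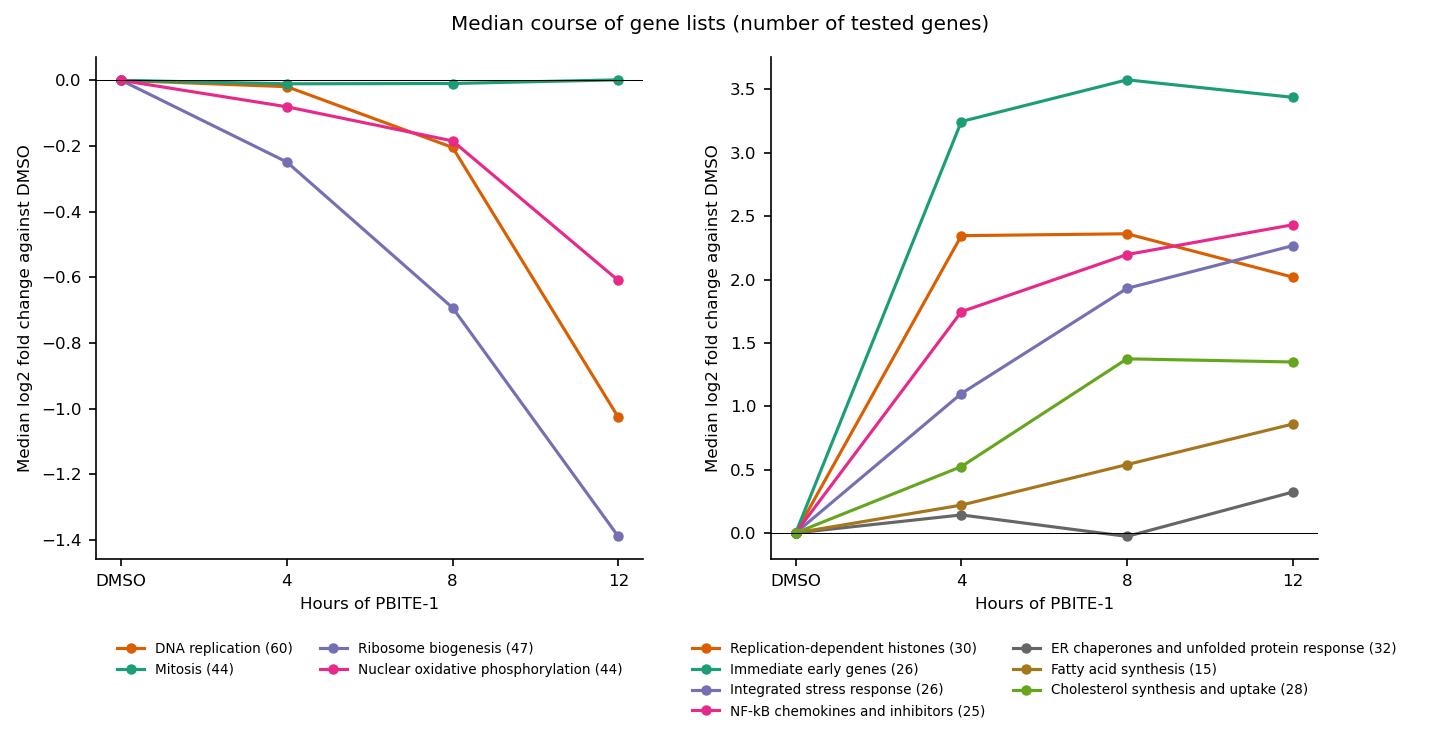
Lines give the median log2 fold change against DMSO of the tested members of 11 gene lists after 4, 8, and 12 h of PBITE-1, with the number of members in parentheses and DMSO set to 0. On the left, DNA replication turns down after 8 h (-0.20 to -1.03) and mitosis stays near 0. On the right, histones pass from 2.36 to 2.02 and fatty acid synthesis from 0.54 to 0.86 between 8 h and 12 h.

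Inflammatory and early response genes parted in the later step. CXCL2 (chromosome 4, 74097035 to 74099293, minus strand), a neutrophil chemokine, had 0 counts in every DMSO sample and 10, 5, and 6 at 4 h. It had 0, 2, and 7 counts at 8 h and 140, 104, and 136 at 12 h. Its fitted log2 fold change between 8 h and 12 h was 6.04 (SE 0.66, adjusted p = 3.68e-10) and depends on the few counts at 8 h. CXCL8, interleukin 8, went from 61.9, 77.7, and 80.7 to 249.7, 243, and 241 CPM (log2 fold change 1.76, SE 0.11, adjusted p = 2.66e-17). CCL20, the ligand of CCR6, went from 8.22, 9.70, and 10.7 to 22.2, 23.1, and 23.2 CPM (log2 fold change 1.29, SE 0.13, adjusted p = 9.93e-11). In these 3 chemokines every 12 h sample lay above every 8 h sample. ICAM1 (chromosome 19, 10270835 to 10286615, plus strand), an adhesion molecule and another target of NF-kB, went back from 43.4, 42.0, and 48.0 CPM to 6.995, 12.02, and 9.61 CPM (log2 fold change -2.22, SE 0.13, adjusted p = 7.42e-18). DMSO was at 7.04 ± 0.718 CPM (SD, n = 3). Over the 25 tested genes of the NF-kB list, 12 were higher and 7 lower (median 0.14), with 6 of the 7 chemokines and cytokines higher and 1 that did not pass.

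Interferon-stimulated genes were lower more often than higher, 15 against 6 of 30, with a median of -0.39. CXCL10, an interferon-induced chemokine, went from 22.1, 23.9, and 27.5 to 8.04, 10.8, and 8.53 CPM (log2 fold change -1.40, SE 0.12, adjusted p = 1.35e-12) after a rise up to 8 h. CXCL11, of the same family, continued a fall, from 13.8, 11.6, and 12.5 to 3.05, 3.529, and 2.69 CPM (log2 fold change -2.03, SE 0.18, adjusted p = 1.04e-12). CXCL11 lies within ART3 on the other strand, and their reads cannot be told apart if strand was not used. Among 26 immediate early genes, 8 were higher and 5 lower, and FOS and FOSB were called higher. FOS, a subunit of AP-1, went from 12.7, 13.1, and 13.3 to 26.0, 30.1, and 28.8 CPM (log2 fold change 1.12, SE 0.10, adjusted p = 8.99e-13). JUND, high against DMSO at 8 h (3.18), did not pass (0.05). KLF2 (chromosome 19, 16324817 to 16327874, plus strand), a zinc finger factor, went back from 33.8, 34.7, and 36.0 CPM to 8.48, 9.93, and 7.12 CPM (log2 fold change -2.03, SE 0.12, adjusted p = 1.05e-17). Its DMSO counts were 10, 7, and 2. Of 14 KLF factors, 10 were lower and 2 higher. PHLDA1, a feedback gene of receptor signaling, went from 47.2, 49.0, and 51.9 to 13.5, 17.97, and 18.1 CPM (log2 fold change -1.57, SE 0.09, adjusted p = 4.03e-18).

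The CXCL2 promoter (chr4:74099146-74099445, minus strand) is shown with the NF-kB motif in capitals, GGGA and TTTCC with A or C between, on either strand. These letters were in 0.355% of all promoters and in 0.292% of those of genes that rose. The windows of CXCL8 and ICAM1 held no match.
CXCL2: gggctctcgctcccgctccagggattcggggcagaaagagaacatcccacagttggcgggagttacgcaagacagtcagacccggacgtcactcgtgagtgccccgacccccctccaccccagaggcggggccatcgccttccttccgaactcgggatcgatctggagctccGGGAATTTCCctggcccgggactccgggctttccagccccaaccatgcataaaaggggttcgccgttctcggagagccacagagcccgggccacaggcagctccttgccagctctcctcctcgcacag

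Reversal was incomplete for most of the reversed genes that had been high at 8 h, with a median of 0.92 against DMSO at 12 h on the log2 scale. The median of their mean counts at 8 h and 12 h was 27.58, against 308.3 over all tested genes. The distance of many from DMSO therefore rests on few counts. With at least 10 counts in every parental sample, 59 reversed genes fell. Of the 196 reversed genes that fell, 58 were within 0.5 of DMSO at 12 h, 85 were still called higher than DMSO, and 1 was called lower. The remaining 52 lay beyond 0.5 from DMSO, on whichever side, and were not called. Of all tested genes, 17.1% were called higher than DMSO at 12 h and 15.4% lower. IQCN, an IQ motif protein, had the largest fall among those with a mean of at least 100 counts, from 238, 240.2, and 247 CPM to 36.6, 54.0, and 42.8 CPM (log2 fold change -2.45, SE 0.07, adjusted p = 9.62e-27). It was at 5.16 ± 0.368 CPM in DMSO and 234 ± 18.7 CPM at 4 h (SD, n = 3 each). The replication-dependent histone genes, raised at 4 h and 8 h (medians of 2.35 and 2.36 against DMSO), were lower in 14 of 30 and higher in 2, with a median of -0.62. Their median against DMSO was 2.02 at 12 h. H2BC4 went from 82.2, 84.3, and 83.4 to 30.5, 25.6, and 26.5 CPM (log2 fold change -1.60, SE 0.07, adjusted p = 5.79e-21). H4C16, a histone gene outside this list, went from 12.5, 15.96, and 13.6 to 2.90, 2.61, and 3.02 CPM (log2 fold change -2.28, SE 0.20, adjusted p = 1.36e-12). All 12 h samples of both lay below the 8 h samples. H1-2 and H3C10 did not pass (-0.04 and 0.10), and the reads of near-identical histone genes are uncertain.

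Of the 112 genes that had been called lower at 8 h and rose, 78 were within 0.5 of DMSO at 12 h, 7 still called lower, and 2 called higher. The remaining 25 lay beyond 0.5 from DMSO, on whichever side, and were not called. ZNF248, a zinc finger protein (chromosome 10, 37776526 to 37858106, minus strand), was at 16.5 ± 1.64 CPM in DMSO and 7.51 ± 0.534 CPM at 4 h (SD, n = 3 each). It was at 4.32, 3.51, and 4.93 CPM at 8 h and at 23.4, 18.4, and 22.7 CPM at 12 h (log2 fold change 2.35, SE 0.16, adjusted p = 2.61e-15). PLPP6, a lipid phosphatase (chromosome 9, 4662315 to 4665258, plus strand), went from 5.95, 5.71, and 6.45 CPM to 27.2, 24.6, and 25.7 CPM (log2 fold change 2.10, SE 0.13, adjusted p = 2.42e-17) with 21.5 ± 1.36 CPM in DMSO (SD, n = 3). TSPYL4, of the nucleosome assembly protein family, went from 11.5, 12.5, and 12.8 to 51.0, 47.0, and 48.7 CPM (log2 fold change 2.00, SE 0.09, adjusted p = 9.23e-21) with 36.2 ± 1.27 CPM in DMSO (SD, n = 3). ZNF234 went from 2.45, 2.96, and 2.51 to 10.5, 11.9, and 11.2 CPM (log2 fold change 2.08, SE 0.20, adjusted p = 9.57e-12). In all 4 genes the fitted 12 h level was within 0.5 of DMSO on the log2 scale. That their samples of 8 h and 12 h did not overlap was a condition of their choice.

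Some features that did not choose the groups were counted, without a test. Abundance was not matched. The median of the mean counts at 8 h and 12 h ranged from 20.75 to 101.8 over the groups, against 308.3 over all tested genes. The 112 reversed genes that rose had a median gene span of 8443 bases against 32628 over all tested genes, and 24 of them (21.4%) had no intron in the annotation, against 4.37% of all tested. The share without introns was 7.95% for late onset and for continued genes that rose, 8.67% for reversed genes that fell, and 2.14% and 2.03% for late onset and continued genes that fell. The TATA box letters TATAAA were in 24.2% of promoters of continued genes that rose and 18.2% of reversed genes that fell, against 1.83% of late onset genes that rose, 11.9% of all genes that fell, and 5.99% of tested genes. The ETS letters CCGGAAGT were in 1.92% of promoters of genes that fell and 9.65% of those that rose, against 8.41% of tested genes. These searches covered both strands of the same window.

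After ERG knockdown in VCaP-shERG, whose samples enter no other comparison here, 7.19% of all tested genes were called lower and 12% higher. Of the 933 genes that fell between 8 h and 12 h, 203 (21.8%) were called lower after knockdown and 170 (18.2%) higher. Genes that rose were called higher after knockdown in 140 of 493 cases (28.4%) and lower in 11 (2.23%). By group, the share lower after knockdown was 24.8% for late onset genes that fell, 29.1% for continued, and 5.61% for reversed. UHRF1, MCM6, and E2F1 had log2 fold changes of -1.97, -1.56, and -1.56 after knockdown. Those of KLK3, KLK2, and ACP3 were -0.24, -0.59, and 0.71, the last in the other direction. The lines and treatments differ, and no test of the difference was made here. The series has no Dox sample without the hairpin against ERG, so effects of Dox and of ERG loss cannot be told apart in these samples.

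The step from 8 h to 12 h was compared with the step of equal length from 4 h to 8 h in the same model. It was higher in 651 genes (4.6%) and lower in 1137 (8.03%). In the earlier step by itself 4.43% of genes were called higher and 2.22% lower. Of the 151 late onset genes that rose, 68 were among the former, and of the 327 that fell 175 were among the latter. Of the 88 continued genes that rose, 9 had a higher and 2 a lower later step, and of the 148 that fell 14 had a lower one. CDKN1C and BEST1 were examples of continued genes, with steps of 1.46 and 1.87 from 4 h to 8 h and 2.08 and 2.24 from 8 h to 12 h. The 8 h samples enter both steps with opposite sign, so a deviation shared by them moves this difference. The late onset and continued groups were also chosen by the later step. Their direction in this difference is therefore partly set by that choice.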

How the data were processed

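Total RNA of 18 samples was depleted of ribosomal RNA and sequenced in paired reads. The authors deposited a table of unnormalized counts, in whole numbers, with 1 row per gene. The methods of the paper name Kallisto, and the submitters' processing notes name STAR and featureCounts with build hg38. Which of them made the table, the annotation, and the use of strand are not given in the sources used here, and no authors' comparisons were used. The members and lists were chosen with earlier results of these data known.

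Symbols were matched by Ensembl identifier (22011 of 22034 genes) and positions taken from GENCODE release 29 on GRCh38 (21921 genes). Of 1080 entries in 43 gene lists, 9 were not found in the table. Genes kept by filterByExpr of edgeR 4.0.16 over the 6 groups (14164) were scaled by TMM and tested in R 4.3.3 with voom, lmFit, and eBayes of limma 3.58.1, the approach the study's methods name, on the 12 parental samples. P-values were adjusted by Benjamini-Hochberg over all tested genes, two-sided, and a call needed an adjusted p below 0.05 with a log2 fold change beyond 1 in either direction. VCaP-shERG had its own fit. Gene lists were described by counts and medians without a test. Named genes were those the study names, the 4 largest changes of each late onset, continued, and reversed group with no overlap of samples and a mean count of at least 100, and in each list up to 4 called members and 2 that did not pass. Promoters were matched by symbol for 10944 tested genes. Counting error alone sets the floor of 3 counts. On simulated counts for this comparison over 14164 genes, 97 of 100 genes changed by 1.5 on the log2 scale and 100 of 100 changed by 2 were recovered, with 1 false call. The changed genes, as many up as down, had a mean of at least 10 counts, and all others were flat. In the data 27.8% of genes were higher and 32.5% lower with no fold limit, so these rates do not carry over to it.

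Replicates were called biological in the paper's methods. As alternatives, the quasi-likelihood test of edgeR, DESeq2 1.42.0, other scalings, filters, sample sets, folds, limits for late onset, sample weights, the replicate number as a block, and leaving out each parental sample in turn were tried. Same-numbered samples of 8 h and 12 h did not deviate together (correlations of -0.015 to 0.0153), so the numbers were not taken as pairs. No library was left out. A few genes are not reported here.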

Additional observations from a re-analysis of the deposited data

Results flagged for a closer look

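Groups of 3 samples are too small for the outlier criterion, so no sample was singled out by it. What drew attention was a difference between the later step (8 h to 12 h) and the earlier step (4 h to 8 h), tested as an interaction in limma. In 651 genes the later step was higher than the earlier, and in 1137 it was lower.

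Among the named genes, 8 were called in both steps in opposite directions with a called difference between the steps. Opposite calls in both steps largely set that difference in advance, so it is no further evidence. The 8 h samples enter both steps with opposite sign, so a deviation of these samples alone could give this pattern. CXCL2 was lower in the earlier step (-2.06) and higher in the later (6.04), a difference of 8.10 (SE 1.37), on counts of 0, 2, and 7 at 8 h. SLC45A3 behaved likewise (-1.03 and 1.60, difference 2.62), with 12 h samples of 61.2, 27.1, and 45.9 CPM. The other 6 were higher in the earlier step and lower in the later. The difference was -2.45 for ABCA1, -2.69 for CXCL10, and -2.71 for the zinc transporter SLC30A2, whose later step was under the fold limit without 12 h replicate 1 (-0.95). It was -3.24 for OAS2, -3.46 for KDR, and -2.57 for KLF8, which were at most 1.61 CPM in any 8 h sample. KLF8 lost its call between 8 h and 12 h under 9 of 23 alternatives, with adjusted p of 0.051 to 0.202 in them, among them edgeR's quasi-likelihood test (adjusted p = 0.068), DESeq2 (adjusted p = 0.138), and leaving out 12 h replicate 1 (adjusted p = 0.202).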

How the results depend on the processing

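Of 106 named called genes, none changed direction under the alternatives in which it was tested, of 23 run, and 97 kept their call in each of these. The minimum of 10 counts in every parental sample left 26 of the 106 untested. The genes ABCC2, ABCC3, GADD45G, KLF8, LYZ, RBBP7, SLC30A10, SLC30A2, and VWF lost the call in at least 1. EdgeR's quasi-likelihood test gave 492 higher and 909 lower genes (467 and 887 shared with limma), and DESeq2 gave 470 and 860. Scaling on library size only moved the median by 0.03 on the log2 scale. The replicate block gave 486 and 935 calls, although the numbers pair no samples, and changed no count by over 1.5 times. Leaving out 1 sample at a time gave 481 to 513 higher and 866 to 941 lower genes, 3490 to 3963 and 4198 to 4646 with no fold limit, 132 to 153 and 306 to 337 late onset, 78 to 95 and 125 to 154 continued, 102 to 126 and 171 to 207 reversed, and 597 to 677 and 1083 to 1155 in the test of the steps. Counts that moved by over 1.5 times did so with fewer or more genes tested or with another limit. Without a filter 336 reversed genes fell. With at least 10 counts in every parental sample (12044 genes), 316 genes rose and 505 fell, late onset genes that fell were 209, continued 36 and 67, reversed 71 and 59, and 691 later steps were lower. With the limit lowered to a 1.5-fold change, 1418 rose and 2042 fell, with 550 and 900 late onset, 344 and 510 continued, 395 and 482 reversed, and 1439 and 2300 differing steps. With the limit raised to 1.5 on the log2 scale, 158 rose and 393 fell, with 37 and 116 late onset, 16 and 28 continued, 41 and 73 reversed, and 248 and 561 differing steps. Late onset within 0.25 of DMSO gave 73 and 148 genes, and within 1 gave 275 and 583. The medians of the endothelial list (0.0309 without a filter) and the leukocyte list (-0.275 to 0.0804 leaving out 1 sample, positive without 8 h replicate 3 or 12 h replicate 1) changed sign. These lists hold 3 tested genes each, and depth limits them and genes at few counts at 8 h.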

Other observations

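Abundant genes outside the lists, chosen here after their values were seen, also moved between 8 h and 12 h. TRPM8, a cold-gated channel of luminal prostate cells, went from 292, 287, and 279 to 89.6, 68.5, and 79.2 CPM (log2 fold change -1.87, SE 0.06, adjusted p = 6.18e-26). NPY, neuropeptide Y, went from 272, 253, and 251 to 69.2, 45.4, and 53.9 CPM (log2 fold change -2.24, SE 0.08, adjusted p = 4.3e-25). PEG10, a gene derived from a retrotransposon, was among the most abundant that rose, from 2821, 2939, and 2923 to 8497, 8509, and 8879 CPM (log2 fold change 1.58, SE 0.02, adjusted p = 4.61e-36), after 654 ± 26.3 CPM in DMSO (SD, n = 3). ID1 and ID2, inhibitors of basic helix-loop-helix factors, went from 48.9, 47.3, and 47.1 to 156, 121, and 129 CPM (log2 fold change 1.49, SE 0.09, adjusted p = 8.31e-18) and from 87.5, 81.2, and 75.8 to 238, 193, and 222 CPM (log2 fold change 1.40, SE 0.06, adjusted p = 3.59e-22), and both had been slightly lower than DMSO at 8 h (-0.55 and -0.26). MCCC2, of leucine catabolism, fell from 195, 191, and 207 to 71.5, 62.4, and 68.5 CPM (log2 fold change -1.55, SE 0.05, adjusted p = 7.25e-25), and NIBAN1, a stress-induced gene, rose from 101, 106, and 105 to 249.9, 322, and 273 CPM (log2 fold change 1.43, SE 0.06, adjusted p = 4.46e-22). In each of these 7 genes, as in most called genes, the samples of the times did not overlap.

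Genes whose symbol begins with ZNF and a number, 484 of those tested, were higher in 158 and lower in 113, with a median of 0.10, and 26 rose and 9 fell past the fold limit. MYC was at 26.4, 29.3, and 26.6 CPM at 8 h and 50.6, 36.0, and 44.8 CPM at 12 h (log2 fold change 0.65, SE 0.09, adjusted p = 9.17e-08), after 339 ± 14.2 CPM in DMSO (SD, n = 3), so its later step was within the fold limit and opposite to its earlier fall.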
